A study of Mus musculus with 24 samples.

Results

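The comparison described here is the genotype difference under LPS: cortex of 6 mice labelled Abca7 against cortex of 6 mice labelled control, all 12 given LPS. Its members are the 12 libraries with the stimulus label LPS, of 24 libraries in the series, and the genes with at least 10 raw counts in at least 6 of these 12 libraries, which were 21341 of the 43346 genes counted. The mice labelled Abca7 are Abca7 heterozygotes according to the series design. How the allele was made, the strain background, the sex of the mice, and the dose, route and timing of the LPS injection were not given in the sources used here. Animals were 54 to 56 days old in both LPS groups. The other 12 libraries came from mice with the stimulus label none, 6 labelled Abca7 (55 to 58 days old) and 6 labelled control (55 to 57 days old), and serve below as a second set of animals. Each title carries its own number, taken as 1 animal per library. If libraries shared an animal, the p-values would measure technical spread. Tissue pieces hold many cell types, so fewer cells of a type and less RNA per cell cannot be told apart.

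Abca7 encodes an ATP-binding cassette transporter that moves phospholipids across membranes, and variants of the human gene are associated with Alzheimer disease risk. LPS, a glycolipid shed by Gram-negative bacteria, is carried by Cd14 to the receptor Tlr4, whose adaptor Myd88 leads to NF-kB and to cytokine genes, while a separate branch leads to type I interferon and interferon-stimulated genes. In brain, LPS given to the animal acts on endothelium and microglia, and microglia then lose part of their resting gene programme while astrocytes become reactive.

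Total counts per library ran from 48151862 to 75741388 in the Abca7 LPS group and from 52110299 to 74948653 in the control LPS group, and a difference between them was not detected (exact permutation test, two-sided, p = 0.550, adjusted p = 0.857 over 8 checks of libraries). Neuron markers averaged 7.57 to 7.77 log2 CPM and astrocyte markers 7.11 to 7.48 over the 24 libraries, so the cell types of the labelled tissue were present in each. No pair of libraries of a group agreed within counting noise (chi-square per degree of freedom 7.80 to 225 over 60 pairs). Levels below are CPM (read counts scaled to a common library size) with TMM factors over all 24 libraries, and differences are log2, Abca7 minus control, from edgeR's quasi-likelihood fit. An adjusted p is the Benjamini-Hochberg value over all genes tested, with a threshold of 0.05. For DESeq2, an alternative test used below, it is over the genes left by that tool's own default filtering. Some tested genes, Il6 among them, have no adjusted p there.

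A pair of libraries stood apart, and results are given with and without them. Replicate 4 of the Abca7 LPS group responded weakly to LPS. All 24 tested members of a list of proinflammatory cytokines, chemokines and NF-kB feedback genes had their lowest level of the 12 LPS libraries in it, against 13.4% of all genes tested. Its mean over that list was 1.05 log2 CPM. The other 5 Abca7 libraries lay between 2.95 and 3.97, the control LPS libraries between 3.09 and 3.91, and the unstimulated libraries between -1.59 and -0.58. On the second principal component of the 12 libraries (15.7% of the variance) it lay at -45.1. Replicate 4 of the control LPS group went against its label at Gm9855, a processed pseudogene described next, and is called the library labelled control replicate 4.

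Gm9855 is a copy of the coding sequence of Tdg, the gene of thymine DNA glycosylase, a DNA repair enzyme. It lies on chromosome 10, as does Tdg, and was one of the 3 genes past the threshold between genotypes without LPS. A stretch of both is printed because counts at the 2 genes cannot be fully separated. Capitals mark the 5 positions that differ, and both are written 5′ to 3′ on their transcribed strand from GENCODE M21 on mm10. The Tdg stretch is spliced coding sequence within chr10:82648009-82648627 (plus strand), and the Gm9855 stretch is chr10:42054206-42054325 (minus strand), the whole of it inside the pseudogene's exon.
Tdg: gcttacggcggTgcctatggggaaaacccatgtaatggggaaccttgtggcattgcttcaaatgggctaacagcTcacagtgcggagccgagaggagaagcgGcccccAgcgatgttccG
Gm9855: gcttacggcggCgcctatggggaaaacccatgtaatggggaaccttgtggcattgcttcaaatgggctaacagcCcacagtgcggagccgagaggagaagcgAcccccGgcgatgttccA
Counted from 1 at the left end, with the Tdg base first, the differences are T12C, T75C, G103A, A109G and G120A. Over the 1194 bases of the pseudogene, 1185 (99.2%) equalled the Tdg transcript. Of the 50-base stretches of Gm9855, 76.5% also occur in Tdg transcripts. How reads with several matches were counted is not given in the sources used here.

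Promoters of 2 LPS-responsive genes whose levels are given below are printed as the 250 bases before the annotated start, from RefSeq on GRCm38.p6. In the Cxcl10 promoter (chr5:92348890-92349139, minus strand), capitals mark an interferon-response motif, GAAA followed by any 2 bases and GAAA, and an NF-kB motif, GGGA, any base, TT, any base and CC.
Cxcl10: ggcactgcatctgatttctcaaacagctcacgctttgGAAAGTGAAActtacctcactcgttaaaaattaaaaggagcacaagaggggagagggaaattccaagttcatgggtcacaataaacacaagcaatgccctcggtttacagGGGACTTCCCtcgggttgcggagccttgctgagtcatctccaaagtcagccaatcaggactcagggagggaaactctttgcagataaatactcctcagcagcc
In the Abca1 promoter (chr4:53159896-53160145, minus strand), capitals mark the reverse complement of a motif bound by the sterol-sensing receptor LXR, TTACT followed by any 3 bases and GGTCA.
Abca1: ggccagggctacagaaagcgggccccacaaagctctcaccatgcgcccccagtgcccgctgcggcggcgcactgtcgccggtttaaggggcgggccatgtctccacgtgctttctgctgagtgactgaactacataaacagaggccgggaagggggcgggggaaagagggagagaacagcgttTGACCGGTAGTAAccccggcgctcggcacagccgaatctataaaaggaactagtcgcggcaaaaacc
Both strands were searched in all 32851 RefSeq promoter windows, which run to 50 bases past the start. The interferon-response motif was in 3.44% of them, the NF-kB motif in 1.2% and the LXR motif in 0.0365%. A match describes the letters only.

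Abca7 itself (chr10:79996494-80015572, mm10) was not lower in the libraries labelled Abca7. Under LPS its level was 20.5, 25.6 and 27.1 CPM (lowest, median, highest) in the control group and 25.2, 29.97 and 31.5 CPM in the Abca7 group. The Abca7 libraries lay higher, and the groups overlapped. Group means were 24.5 ± 2.66 and 29.4 ± 2.29 CPM (SD, n = 6 each), with p = 0.00866 in an exact permutation test (two-sided, smallest possible p 0.00216). The log2 difference was 0.27 ± 0.07 (SE; edgeR quasi-likelihood test, Benjamini-Hochberg adjusted p = 0.424). It was 0.24 without Abca7 replicate 4 and 0.29 without control replicate 4. In the mice without LPS the difference had the same sign, 0.17 ± 0.05 (edgeR quasi-likelihood, adjusted p = 0.670; exact permutation p = 0.0238), with medians of 28.0 CPM in control and 31.3 CPM in Abca7 libraries. Counts over the whole gene include any reads from parts that the allele keeps, so they check the label only in part. Since the direction goes against a heterozygous loss, the groups are named below by their labels.

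**Figure D1:**
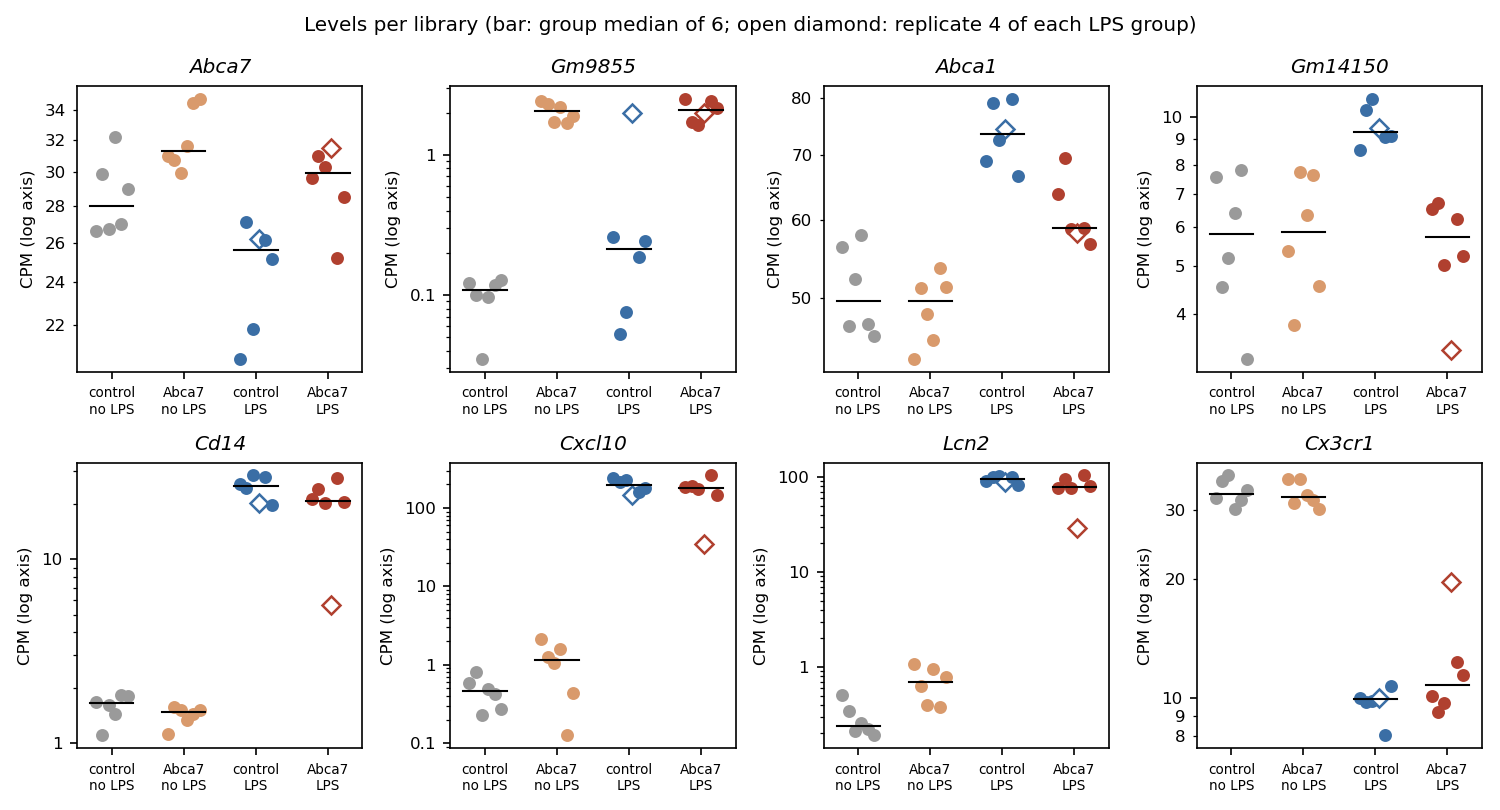
Level of 8 genes in each of the 24 libraries, in CPM on log axes, for the 4 groups of 6; bars are group medians and open diamonds mark replicate 4 of each LPS group. Abca7 replicate 4 lies below the other LPS libraries for Cd14, Cxcl10 and Lcn2, and control replicate 4 lies with the Abca7 libraries for Gm9855.

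No gene passed the threshold between genotypes under LPS (0 of 21341, 0%, edgeR quasi-likelihood test with Benjamini-Hochberg adjustment). At an unadjusted p under 0.05 there were 1728 genes (8.10%), 950 with a positive difference (4.45%) and 778 with a negative one (3.65%). The other tests differed. DESeq2 called 39 genes, 22 positive and 17 negative, edgeR with age as a factor called 17, and limma voom called 0. Without Abca7 replicate 4, edgeR called 1 gene (Gm14150, negative; 0.00471%) and 2098 genes (9.88%) had an unadjusted p under 0.05. Without control replicate 4 it called 1 gene (Gm9855, positive; 0.00473%) and 1430 genes (6.76%) had an unadjusted p under 0.05. Without both, it called these 2 genes (0.00952%). Control replicate 4 was set apart by its level of Gm9855, so the calls of that gene follow from the choice of the library and support nothing. Groups did not overlap at 93 genes (0.436%), 45 higher and 48 lower in the Abca7 group. The number of such genes was 261 (1.22%) without Abca7 replicate 4. A smaller group overlaps the other less often by itself, so these counts cannot be compared directly.

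**Figure D2:**
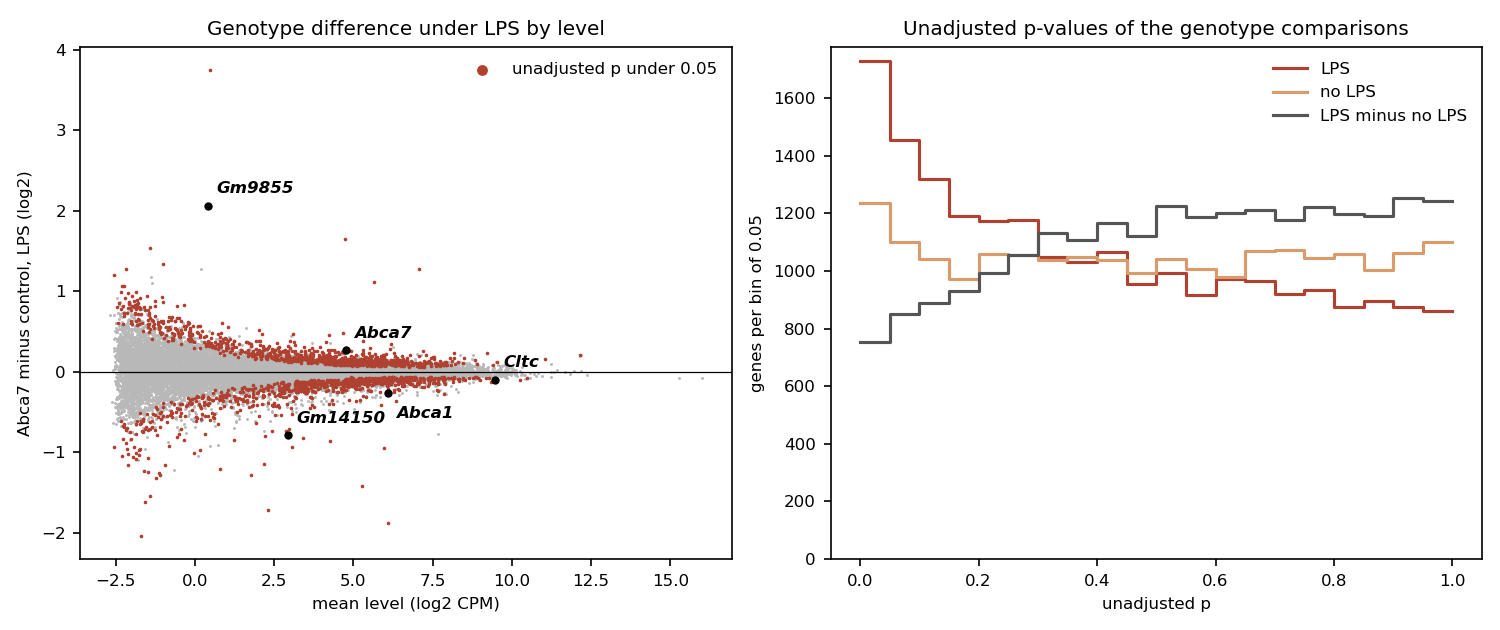
Left, the log2 difference between genotypes under LPS (y) against mean level in log2 CPM (x) for the 21341 genes tested, with the 1728 genes at an unadjusted p under 0.05 in red. Right, the number of genes per p bin of 0.05 for the comparison with LPS, without LPS, and their difference; the first bin holds 1728, 1235 and 752 genes.

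The counts of Gm9855 were uneven within the control group. In the control LPS libraries it was at 0.0534 to 0.259 CPM in 5 and at 1.97 CPM in replicate 4, and in the Abca7 LPS libraries it was at 1.63, 2.08 and 2.499 CPM (lowest, median, highest). The library labelled control replicate 4 thus lay inside the range of the Abca7 group. Raw counts behind these values were 3 to 14 in the 5 control libraries, 151 in control replicate 4 and 78 to 195 in the Abca7 libraries. Without LPS the groups did not overlap, with 0.0355 to 0.128 CPM in control and 1.69 to 2.42 CPM in Abca7 libraries. The log2 difference under LPS was 2.06 ± 0.56 (edgeR quasi-likelihood, adjusted p = 0.431) and 3.68 ± 0.28 without control replicate 4. Since that library was set apart by its level of this gene, the second value is a description and carries no test. Without LPS it was 4.31 (edgeR quasi-likelihood, adjusted p = 7.21e-09). Raw counts there were 2 to 8 in control and 94 to 139 in Abca7 libraries. The gene thus met the filter on counts through the Abca7 libraries alone, and its call without LPS is no support.

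Tdg, the parent gene, was at 23.9, 27.2 and 29.7 CPM in control and at 20.8, 22.1 and 25.2 CPM in Abca7 LPS libraries (lowest, median, highest), with overlapping groups. Its difference was -0.25 ± 0.06 (edgeR quasi-likelihood, adjusted p = 0.408), and it was -0.33 without LPS, where it passed (adjusted p = 0.0409). Of the 50-base stretches of Tdg, 41.2% occur in another gene's transcripts. The neighbouring 1190007I07Rik, whose difference without LPS was -0.63 (edgeR quasi-likelihood, adjusted p = 0.00509), had -0.22 ± 0.12 under LPS (adjusted p = 0.644). Control replicate 4 was at 3.17 CPM for this gene, against 4.24 to 4.76 CPM in the other 5 control libraries and 2.93 to 4.32 CPM in the Abca7 group. Without that library the difference was -0.29. A930033H14Rik, also on chromosome 10, had a difference of 0.56 ± 0.16 (adjusted p = 0.440) under LPS and 0.92 without.

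Gm14150 had the smallest p of all genes tested. It is a processed pseudogene (chr2:151458956-151460309), and 62.5% of its 50-base stretches also occur in transcripts of Tuba1b, an alpha-tubulin gene. Its level was 8.58, 9.31 and 10.8 CPM in control and 3.39, 5.74 and 6.70 CPM in Abca7 LPS libraries, so the groups did not overlap. The difference was -0.79 ± 0.13 (edgeR quasi-likelihood, unadjusted p = 1.42e-05, adjusted p = 0.304), and -0.68 without Abca7 replicate 4 (adjusted p = 0.0266). Over the 23 fits run, adjusted p ranged from 3.9e-06 (DESeq2) to 0.717. Without LPS the medians were 5.81 and 5.85 CPM and the difference was 0.02, and the interaction had an unadjusted p of 0.00440 and did not pass. Tuba1b, at medians of 110 and 103 CPM under LPS, had a difference of -0.11 (adjusted p = 0.689).

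Genes of LPS recognition had mostly negative differences, 17 of 21 with all 12 libraries and 14 of 21 without Abca7 replicate 4. Of the 21 tested genes, which cover LPS recognition and TLR4 signalling, 0 passed the threshold, and at an unadjusted p under 0.05 there was 1 positive (Ikbkb, a kinase that activates NF-kB, 0.12) and 0 negative. Their median difference was -0.09, against 0.00 over all genes tested, and -0.04 without Abca7 replicate 4. Cd14, the co-receptor, was at 19.6, 25.0 and 28.4 CPM in control and at 5.65, 20.7 and 27.6 CPM in Abca7 LPS libraries, with a difference of -0.29 ± 0.24 (edgeR quasi-likelihood, adjusted p = 0.772) and -0.10 without replicate 4. The lowest value, 5.65 CPM, belongs to replicate 4, and the unstimulated libraries lay between 1.11 and 1.82 CPM. Tlr4 had -0.24 ± 0.16, and -0.27 without replicate 4. Tlr2, the receptor of bacterial lipoproteins, went from -0.32 ± 0.30 to -0.11 and Myd88 from -0.15 ± 0.12 to -0.04 without it. None of these passed the threshold.

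Cytokine and chemokine genes had negative differences that shrank without replicate 4. All 24 tested members (of 25 listed) were negative with all 12 libraries, 0 passed the threshold, and 0 reached an unadjusted p under 0.05 in either direction. Without replicate 4, 15 were negative and 9 positive, and the list's median went from -0.23 to -0.04. Cxcl10, a chemokine that attracts T cells, was at 145, 197 and 241 CPM in control and at 34.5, 179 and 260 CPM in Abca7 libraries, and at or below 2.12 CPM in every unstimulated library. Its difference was -0.23 ± 0.30 (edgeR quasi-likelihood, adjusted p = 0.857), and -0.02 without replicate 4. Il1b went from -0.20 ± 0.40 to 0.04, and Tnf from -0.15 ± 0.31 to 0.05. Il6 went from -0.50 to -0.27, Ccl2 from -0.36 to -0.12 and Cxcl2 from -0.48 to -0.25. None of these 6 differences passed with or without replicate 4.

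Interferon-stimulated genes had negative differences at all 34 members tested, and smaller ones without replicate 4. Of these 34 members (of 35 listed), 0 passed the threshold, and 0 positive and 6 negative had an unadjusted p under 0.05 (17.6%, against 8.10% of all genes). They included Irf7, Usp18, Oas2 and Ifitm3. Without replicate 4, the signs were 30 negative and 4 positive, the median went from -0.18 to -0.11, and 2 (5.88%) had an unadjusted p under 0.05, against 9.88% of all genes. Ifitm3, an antiviral membrane protein gene, was at 22.9, 27.7 and 30.5 CPM in control and 18, 23.97 and 25.9 CPM in Abca7 libraries, with overlapping groups and a difference of -0.24 ± 0.08 (edgeR quasi-likelihood, adjusted p = 0.499). Irf7, a regulator of type I interferon genes, went from -0.23 ± 0.10 to -0.16. The mean of the 34 genes was 4.41 to 4.82 log2 CPM in control libraries, 3.79 in Abca7 replicate 4 and 4.27 to 4.74 in the other 5 Abca7 libraries.

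Acute-phase genes and genes of reactive astrocytes gave the same kind of picture. Of 18 acute-phase genes 0 passed, 17 were negative, and the median went from -0.28 to -0.14 without replicate 4. Lcn2, which encodes an iron-siderophore binding protein, was at 82.9, 95.9 and 102 CPM in control and 28.9, 78.9 and 104 CPM in Abca7 libraries, a difference of -0.29 ± 0.20 (edgeR quasi-likelihood, adjusted p = 0.720), and -0.12 without replicate 4. Without it Saa3 went from -0.54 ± 0.31 to -0.34, and Serpina3f, a serine protease inhibitor gene, from -0.32 ± 0.14 to -0.21. Of 36 reactive astrocyte genes 0 passed, and 0 positive and 5 negative (Gfap, Sphk1, Emp1, Slc10a6 and B3gnt5) had an unadjusted p under 0.05 (13.9%, against 8.10% of all genes). This was 1 (2.78%, against 9.88%) without replicate 4, and the median went from -0.23 to -0.12. Gfap, the astrocyte intermediate filament gene, was at 189, 221 and 240 CPM in control and 140, 190 and 228 CPM in Abca7 libraries (-0.23 ± 0.10, edgeR quasi-likelihood, adjusted p = 0.584). Astrocyte markers as a list also leaned down, with 10 of 12 negative and a median of -0.05, with and without replicate 4. At an unadjusted p under 0.05, 1 of them was positive (S100b, described below) and 2 negative (Slc4a4 and Aqp4), which is 25% of 12, against 8.10% of all genes. Without replicate 4 there were 2, both negative (16.7%, against 9.88% of all genes). The part of the astrocyte markers in the reactive genes' values was not tested.

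Of the 15 MHC class I presentation genes 13 were negative (median -0.17, and -0.07 without replicate 4). At an unadjusted p under 0.05 were 2 of them, B2m and Psmb9 (13.3%, against 8.10% of all genes). Without replicate 4 this was 0 (0%, against 9.88%). Of the 7 MHC class II genes, H2-DMa, which helps load peptides, had 0.25 ± 0.08 and H2-Eb1, a class II beta chain gene, had -0.40 ± 0.18. Of the 15 complement genes 13 were negative, with C3ar1, a receptor for a fragment of C3, at -0.31 ± 0.12. Of the 16 endothelial activation genes 13 were negative with all libraries and 9 without replicate 4. Sele, an adhesion molecule gene of activated endothelium, had -0.61 ± 0.29, and -0.39 without it. None of the genes in these 4 lists passed the threshold.

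Homeostatic microglia genes were mostly positive and disease-associated ones mostly negative, and few reached an unadjusted p under 0.05. Of 20 homeostatic genes 0 passed the threshold, 1 (5%, against 8.10% of all genes) had an unadjusted p under 0.05, 16 were positive (80%, against 50.6% of all genes), and the median was 0.07, or 0.04 without replicate 4. Replicate 4 held the highest of the 12 levels at 9 of these 20 genes, against 11.4% of all genes tested. Cx3cr1, the fractalkine receptor gene of resting microglia, was at 8.05, 9.93 and 10.7 CPM in control and at 9.22, 10.8 and 19.7 CPM in Abca7 LPS libraries. The highest value is replicate 4, and unstimulated libraries lay between 30.1 and 36.6 CPM. Its difference was 0.31 ± 0.15 (edgeR quasi-likelihood, adjusted p = 0.623), and 0.12 without replicate 4. Tmem119, a microglial membrane protein gene, had 0.37 ± 0.12 (adjusted p = 0.484), and 0.25 without it. Trem2, Aif1 and Cd68 had 0.08, 0.09 and 0.03.

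Of 20 disease-associated microglia genes 0 passed, 2 (10%) had an unadjusted p under 0.05 and 16 were negative (80%, against 49.4% of all genes), with a median of -0.07. Spp1, the osteopontin gene, was at 10.9, 14.1 and 16.9 CPM in control and at 9.39, 9.91 and 12.7 CPM in Abca7 LPS libraries. The groups overlapped, and the Abca7 median lay below the lowest control library. Its difference was -0.45 ± 0.10 (edgeR quasi-likelihood, unadjusted p = 0.000395, adjusted p = 0.408), and -0.43 without replicate 4. Without LPS it was -0.31 in the other animals (unadjusted p = 0.0140, adjusted p = 0.698).

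**Figure D3:**
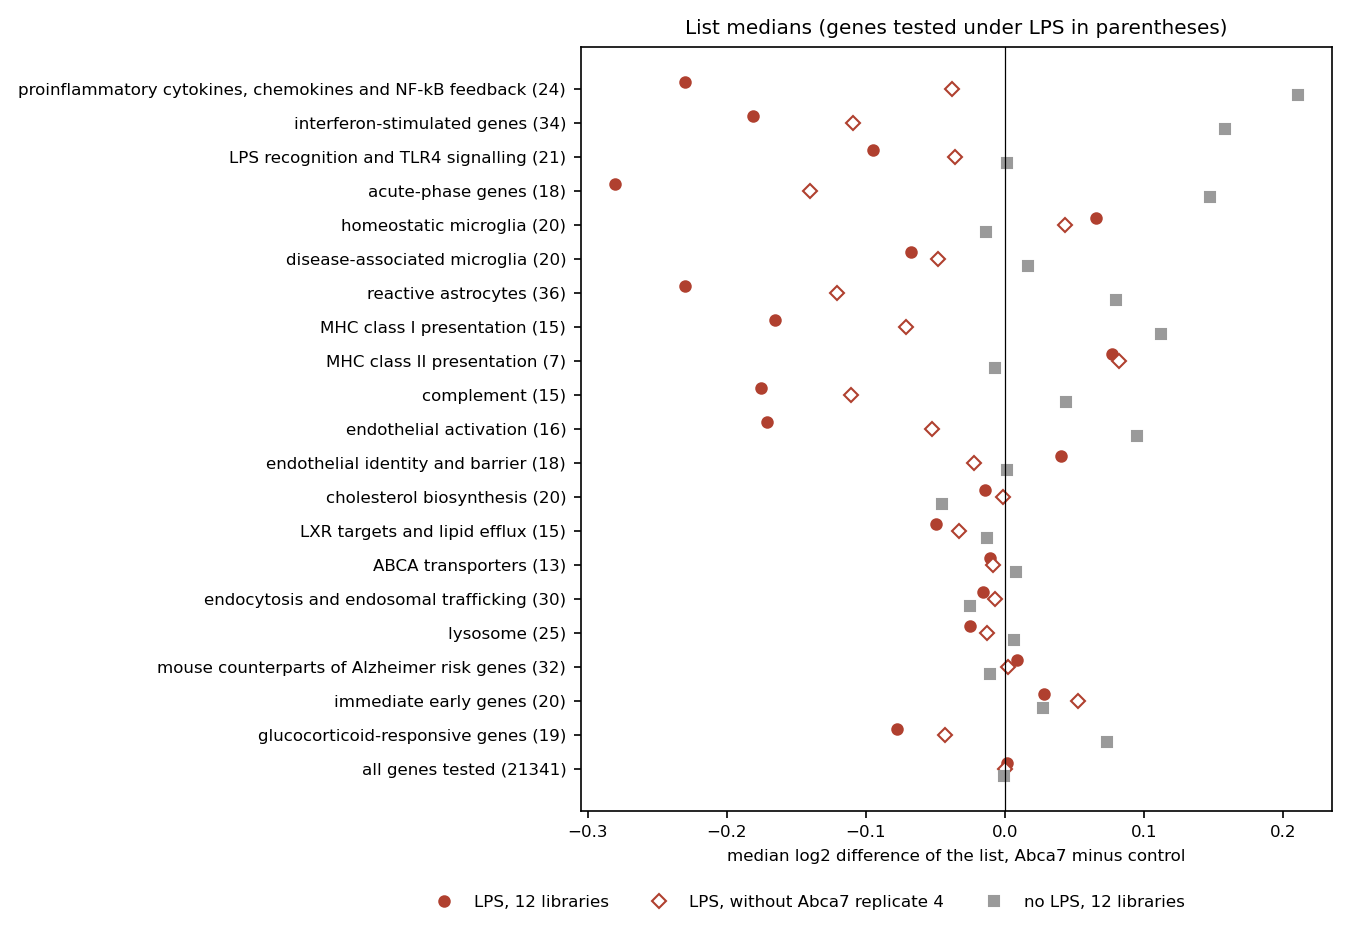
Median log2 difference, Abca7 minus control, of the tested genes of 20 lists and of all genes tested, for the 12 LPS libraries (filled circles), without Abca7 replicate 4 (open diamonds) and for the 12 libraries without LPS (grey squares). The cytokine list moves from -0.23 to -0.04 without replicate 4, both over 24 tested genes. Its value without LPS, 0.21, is over only the 13 members that met the filter on counts there.

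Transporters of the ABCA family lay on both sides of 0. Of 16 listed, 13 were tested and 0 passed. At an unadjusted p under 0.05, Abca7 and Abca8b were positive, and Abca1 and Abca5 were negative (4 of 13, 30.8%, against 8.10% of all genes). Without Abca7 replicate 4 there were 3 (23.1%, against 9.88% of all genes). These counts include Abca7, the gene of the genotype label. Abca1, which exports cholesterol and phospholipid to apolipoproteins and is a target of LXR, was at 66.7, 73.5 and 79.9 CPM in control and at 56.7, 58.9 and 69.6 CPM in Abca7 LPS libraries. Of the 6 Abca7 libraries, 5 lay below the lowest control library. Its difference was -0.27 ± 0.06 (edgeR quasi-likelihood, unadjusted p = 0.000210, adjusted p = 0.408), and -0.25 without replicate 4. By DESeq2 the adjusted p was 0.00789, and with age as a factor it was 0.0267. Without LPS the medians were 49.7 and 49.6 CPM and the difference was -0.06. The interaction had an unadjusted p of 0.0334 and did not pass. Of 15 LXR targets and lipid efflux genes tested, Abca1 included, 0 passed. At an unadjusted p under 0.05, 1 was positive (Abcg4, 0.07) and 1 negative (Abca1), which is 13.3% against 8.10% of all genes. Without Abca7 replicate 4 there were 4, 1 positive and 3 negative (26.7%, against 9.88% of all genes). The median of the 15 with all 12 libraries was -0.05, and Apoe, a lipid carrier gene, had 0.01.

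Of 20 cholesterol biosynthesis genes none reached an unadjusted p under 0.05, and the median was -0.01. Of 30 endocytosis and endosomal trafficking genes 0 passed, and 22 were negative with a median of -0.02. At an unadjusted p under 0.05 were 4 (Cltc, Picalm, Sorl1 and Lamp2), all negative (13.3%, against 8.10% of all genes). Without Abca7 replicate 4 this was 3 (10%, against 9.88%). Cltc, the clathrin heavy chain gene, was at 710, 725 and 760 CPM in control and at 663, 672 and 694 CPM in Abca7 LPS libraries. The groups did not overlap, and the difference was -0.10 ± 0.03 (edgeR quasi-likelihood, adjusted p = 0.432; DESeq2, 0.0287). Lamp2, a lysosomal membrane protein gene, had -0.12 ± 0.04, and Lipa, which encodes the lysosomal acid lipase, had -0.15 ± 0.07 as the only 1 of 25 lysosome genes at an unadjusted p under 0.05. Among 32 mouse counterparts of Alzheimer risk genes, 1 was positive (Abca7) and 4 were negative (Picalm, Sorl1, Ms4a6c and Ms4a6d) at that level (15.6%, against 8.10% of all genes). Without Abca7 replicate 4 this was 3 in either direction (9.38%, against 9.88%). Ms4a6c shares 51.4% of its 50-base stretches with other genes.

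Of 20 immediate early genes none reached an unadjusted p under 0.05. Of 19 glucocorticoid-responsive genes 0 passed the threshold, and 13 were negative. At an unadjusted p under 0.05, 1 was positive and 3 were negative (21.1%, against 8.10% of all genes). Without Abca7 replicate 4 there were 3, 1 positive and 2 negative (15.8%, against 9.88%). Per1, a clock gene, had 0.16 ± 0.06 and Angptl4, a lipase inhibitor gene, had -0.44 ± 0.18. Angptl4 was at 5.196 CPM in Abca7 replicate 4 and at 9.766 to 14.379 CPM in the other Abca7 LPS libraries.

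Around Abca7 on chromosome 10 the signs were uneven. Within 1 Mb of it, 94 other genes were tested, and 11 (11.7%) had an unadjusted p under 0.05, all 11 positive; over the genes on other chromosomes the share was 7.99%, 894 positive and 734 negative. At 1 to 5 Mb the share was 16.9% (15 positive, 10 negative of 148), and at 5 to 20 Mb it was 6.37%. Without LPS the shares were 2.15%, 10% and 5.97%. Izumo4, a gene of the sperm-egg fusion family, had the smallest p of the 94, with 0.23 ± 0.05 (edgeR quasi-likelihood, unadjusted p = 0.000455, adjusted p = 0.408), and 0.04 without LPS. C2cd4c had 0.17, Klf16 0.16, Dot1l, a histone methyltransferase gene, 0.14, and Uqcr11, a subunit gene of respiratory complex III, 0.11. None of the 94 passed the threshold.

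**Figure D4:**
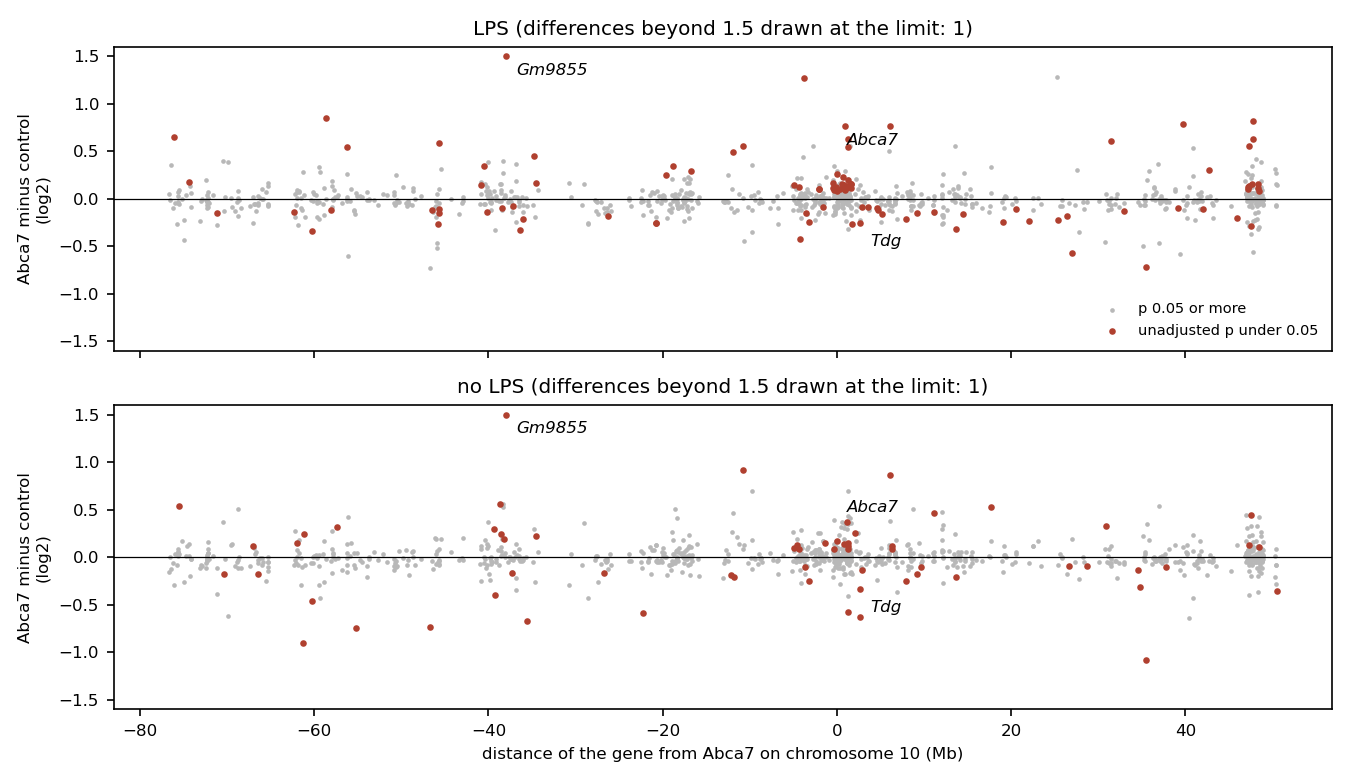
Log2 difference, Abca7 minus control, of chromosome 10 genes (y) against their distance from Abca7 in Mb (x), with LPS (top) and without (bottom); red marks an unadjusted p under 0.05 and differences beyond 1.5 are drawn at the limit. The 11 red genes within 1 Mb with LPS all lie above 0, and Gm9855 is at the limit in both panels.

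The unstimulated mice give a second set of animals for the same genotypes. There 3 of 21015 genes passed the threshold (0.0143%), Gm9855, Tdg and 1190007I07Rik. Gm9855 met the filter on counts through the Abca7 libraries alone. An unadjusted p under 0.05 was reached by 1235 genes (5.88%). Of the 20768 genes tested in both, 280 reached that level with and without LPS, which is 16.6% of the 1690 genes with LPS and 22.9% of the 1224 without. Among genes that did not reach it with LPS, 4.95% reached it without. The difference had the same sign at 275 of the 280, 154 positive and 121 negative. Over 13400 genes of at least 2 log2 CPM, Spearman's rho between both sets of differences was 0.329, a description over genes, which are not replicates and whose 4 groups share no library.

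Named among these genes after their values were seen, Pde4d, a cAMP phosphodiesterase gene, was at 49.3, 51.0 and 52.4 CPM in control and at 43.0, 45.6 and 47.7 CPM in Abca7 LPS libraries. The groups did not overlap, and the difference was -0.16 ± 0.03 under LPS and -0.19 without (edgeR quasi-likelihood, adjusted p = 0.408 and 0.491). Gabrb2, a GABA-A receptor subunit gene, had -0.17 and -0.20, and Scn1a, a sodium channel gene, -0.15 and -0.16. Tenm3, a synaptic adhesion gene, had -0.17 and -0.12. In the other direction, Meg3, a long non-coding RNA, was at 3679.5, 4242 and 4659 CPM in control and at 4605, 4891 and 5086 CPM in Abca7 LPS libraries, with differences of 0.21 and 0.17. Adamts10, a matrix protease gene, had 0.27 and 0.21, and Thbs3, a thrombospondin gene, 0.23 and 0.25. By DESeq2 under LPS, Pde4d, Gabrb2, Tenm3, Meg3, Adamts10 and Thbs3 each passed the threshold, with adjusted p from 0.00293 (Tenm3) to 0.0340 (Gabrb2), and Scn1a did not (adjusted p = 0.12).

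Genes with long spans stood on the negative side. Genes at an unadjusted p under 0.05 with a negative difference spanned a median of 31.9 kb, positive ones 13.4 kb and all tested genes 15.7 kb. For the bins that follow, only genes of at least 2 log2 CPM were ordered by span, in 5 equal bins (2683 genes each under LPS). The bin of longest genes had 58 positive and 206 negative at that unadjusted p, and the bin of shortest genes 173 positive and 88 negative. Without LPS the bin of longest genes held 42 positive and 165 negative genes. For a long-gene index per library, each gene's log2 CPM was taken as its deviation from the gene's mean over the 12 libraries. The index was the median deviation in the longest bin minus that in the shortest, over genes averaging at least 2 log2 CPM. It was -0.0426 to 0.0377 in the Abca7 and -0.0183 to 0.0798 in the control LPS libraries (exact permutation test, two-sided, p = 0.132, adjusted p = 0.456 over 8 checks). The part of this index in single genes' differences was looked at in 1 fit, with the index as a covariate: edgeR then called 2 genes, Gm14150 and Gm27694.

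**Figure D5:**
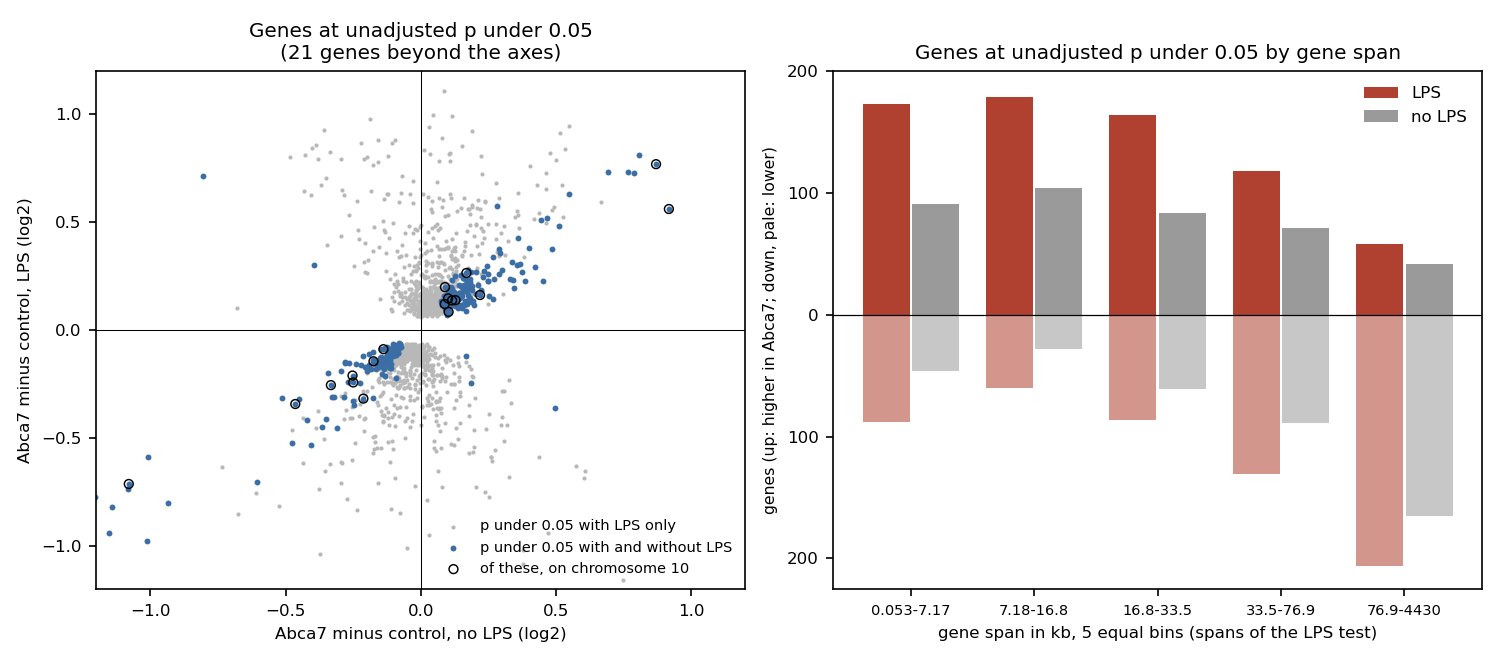
Left, log2 difference between genotypes with LPS (y) against without LPS (x) for genes at an unadjusted p under 0.05 with LPS, with the 280 genes at that level in both in blue and those on chromosome 10 ringed; 21 genes lie beyond the axes. Right, genes of at least 2 log2 CPM at an unadjusted p under 0.05 in 5 bins of gene span, upward for positive and downward (pale) for negative differences. The longest bin holds 58 and 206 genes with LPS.

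Whether the genotype difference itself differed with LPS was tested as an interaction over 24 libraries. No gene passed (0 of 22096, 0%, edgeR quasi-likelihood), and 752 (3.40%) had an unadjusted p under 0.05; DESeq2 and limma voom also called 0. The 5 genes of smallest p were Dlec1, Sulf1, Abca4, Wfdc2 and Zfp710. Abca4, a retinoid-lipid transporter gene, had -0.18 with LPS and 0.68 without, and Wfdc2, an epithelial protease inhibitor gene, had -0.69 and 1.85. Choroid plexus markers moved with the unstimulated comparison. Without LPS their list mean was -0.08, 0.34 and 2.92 log2 CPM (lowest, median, highest) in control and 0.62, 3.09 and 3.22 in Abca7 libraries. The highest control was replicate 1, and the other controls lay at or below 0.64. All 10 markers were positive there, 8 of them at an unadjusted p under 0.05 (edgeR quasi-likelihood, against 5.88% of all genes). Each of the 10 markers had at least 4 raw counts in every library. Under LPS the list mean was 1.98 to 3.27 in control and 0.19 to 2.97 in Abca7 libraries, 9 of 10 markers were negative and none reached an unadjusted p under 0.05. Their part in the interaction was not tested.

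Of the markers of other cell types and regions, 0 passed the threshold under LPS. At an unadjusted p under 0.05 there was 1 of 14 neuron markers (7.14%, against 8.10% of all genes), Vip, a neuropeptide gene of interneurons (0.18). Without Abca7 replicate 4 there were 2 (14.3%, against 9.88%). Of 8 thalamus markers 1 reached it (Rora, -0.17, 12.5%), and 0 of 10 oligodendrocyte, 0 of 7 striatum and 0 of 8 hippocampus markers did. All 10 oligodendrocyte and 7 of 8 thalamus markers were negative, against 49.4% of all genes. Positive were 6 of 7 striatum and 6 of 8 hippocampus markers, against 50.6% of all genes. Of 9 neutrophil markers 4 were tested, and S100a8, a neutrophil calcium-binding protein gene, had -0.92 ± 0.33 at 0.157 to 1.14 CPM. Of 10 lymphocyte markers only 1, Cd4, passed the filter on counts.

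A group of genes known for high levels in the olfactory bulb had large differences in both comparisons. They were chosen after their values were seen and were on no list, so no count over them is given as support. Cdhr1, a cadherin gene of bulb projection neurons, was at 7.07, 23.7 and 41.4 CPM in control and at 11.4, 13.04 and 18 CPM in Abca7 LPS libraries, with -0.86 ± 0.30 (edgeR quasi-likelihood, adjusted p = 0.499) and -1.33 without LPS. Both the lowest and the highest library were controls. Eomes, a transcription factor gene of the same neurons, had -1.28 ± 0.52 and -2.04, and Doc2g had -0.82 ± 0.33 and -1.14. Th, the tyrosine hydroxylase gene of dopaminergic bulb interneurons, had -0.94 ± 0.42 and -1.15. In unstimulated control replicates 1 and 4, Eomes was at 8.53 and 6.91 CPM and Cdhr1 at 43.5 and 33.9 CPM. The other unstimulated controls had 0.255 to 2.2 CPM of Eomes and 6.06 to 19.2 CPM of Cdhr1. The unstimulated Abca7 libraries had 0.199 to 1.56 CPM and 5.69 to 12.8 CPM. The labels name only cortical brain, and how far bulb tissue was in the pieces was not tested.

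Some differences rested on 1 library. At 8 genes the highest of the 12 LPS libraries had at least 10 CPM and at least 4 times the next, and 7 of them had an unadjusted p under 0.05. S100b, a calcium-binding protein gene of astrocytes, was at 760 CPM in Abca7 replicate 4 and at 69.0 to 82.9 CPM in the other 11, and its difference went from 1.27 to -0.08 without that library. Pcdh8, a protocadherin gene, was at 246 CPM in the same library and at or below 35.5 CPM in the others (1.11, and 0.05 without it). Wdr24 was at 234 CPM in control replicate 4 and at or below 21.3 CPM elsewhere (-1.42, and 0.08 without it). Zfp212 reached 177 CPM in Abca7 replicate 5, 2310014F06Rik 15.2 CPM in Abca7 replicate 3, and Taok2 807 CPM in control replicate 1. B630019K06Rik and Cygb reached 486 and 275 CPM, both in control replicate 3.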

How the data were processed

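RNA of mouse cortex was measured in 24 libraries, and 12 of them carry the comparison. The authors deposited raw read counts per gene, made with MAP-RSeq 2.1.1 from HiSeq 4000 reads per the series design, with STAR 2.5.2b and mm10 per the submitters' processing notes. Strandedness, annotation release and treatment of multiply matching reads were not stated in those sources, so overlapping genes cannot be told apart.

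Genes with at least 10 counts in at least 6 of the 12 libraries were tested with edgeR 4.0.16 (quasi-likelihood, TMM) in R 4.3.3, without covariates, and Benjamini-Hochberg adjustment over all of them. Single values were compared with exact permutation tests in scipy 1.17.1. DESeq2 1.42.0, limma voom 3.58.1, RLE factors, other filters, age, Ttr level, a 24-library fit and leaving out each library were alternatives, and the code was tested on simulated data. Sequence shared between genes was counted over 50-base stretches.

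Members, lists and the rule for named genes (Abca7, called genes, top interaction genes, LPS markers, called list members or the 2 of smallest p, genes within 1 Mb) were chosen with earlier results of these data known. Outside that rule, Gm9855, Gm14150, Tdg, 1190007I07Rik, A930033H14Rik, genes shared with the unstimulated mice, bulb genes and single-library peaks were picked after their values were seen.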

Additional observations from a re-analysis of the deposited data

Results flagged for a closer look

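Within each LPS group of 6, the sample farthest from the others was looked for in 332 sets of values (list means, named genes and library measures), and 42 had a gap to its neighbour that was large against the group's range. Chance alone gives about 1 in 20, but the named genes include some picked because 1 library stood apart, so the 42 cannot be set against it. Among the list means alone it was 14 of 70. Of the 42, 20 came from Abca7 replicate 4 and 4 from control replicate 4.

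Abca7 replicate 4 stood apart in 8 list means (log2 CPM, range of the other 5 in parentheses): 1.05 for cytokines (2.95 to 3.97), 1.53 for acute-phase genes (2.63 to 3.06), 2.82 for reactive astrocytes (3.46 to 3.82), 2.10 for complement (2.52 to 2.74), 2.47 for endothelial activation (3.56 to 3.97), 3.81 for endothelial identity (3.43 to 3.51), 4.80 for Alzheimer risk counterparts (4.90 to 4.95) and 5.61 for glucocorticoid-responsive genes (5.92 to 6.07). In CPM, Lcn2 was at 28.9, Cd14 at 5.65, Myd88 at 6.73, Ptgs2 at 20.04, Sele at 0.647 and Fos at 13.4, all below the other 5. Cx3cr1 was at 19.7, Tek, an endothelial receptor gene, at 5.94, Gabrb2 at 165, S100b at 760 and Pcdh8 at 246, all above them. The long-gene index of this library was 0.0377, above the -0.0426 to -0.0150 of the others.

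The library labelled control replicate 4 was at 1.97 CPM for Gm9855, 3.17 for 1190007I07Rik, 16.0 for Fos and 234 for Wdr24.

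Control replicate 1 was at 3.53 log2 CPM for disease-associated microglia, 5.67 for lysosome genes, 2.18 CPM for Spink8 and 807 CPM for Taok2. Control replicate 3 was at 275 CPM for Cygb and 486 CPM for B630019K06Rik, and control replicate 5 at 8.05 CPM for Cx3cr1 and 0.586 CPM for Rdh9. Among the other Abca7 libraries, replicate 2 was at 12.7 CPM for Spp1 and 18 CPM for Cdhr1. Replicate 3 was at 1.48 log2 CPM for meningeal fibroblast markers and 2.13 CPM for Col22a1. Replicate 5 was at 4.59 log2 CPM for oligodendrocyte precursor markers, 7.67 CPM for Emp1, 5.70 CPM for Col3a1 and 177 CPM for Zfp212. Replicate 6 was at 7.47 log2 CPM for oligodendrocyte markers and 0.195 log2 CPM for choroid plexus markers.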

How the results depend on the processing

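The count of genes called under LPS was 39 by DESeq2, 17 with age as a factor, 2 with the long-gene index as a covariate, 2 without both replicates 4, and 0 to 1 when each library was left out; it was 0 with RLE factors, other filters, Ttr level, limma voom and a 24-library fit. The index and the joint omission were chosen after seeing the data. Without LPS the 3 calls became 20 by DESeq2, 22 with age, 101 with Ttr level, and 0 to 25 without single libraries. The interaction gave 0 to 7 calls without single libraries (7 without control replicate 1 of the unstimulated mice: F5, Folr1, Kl, Mfrp, Slc4a5, Tmem72 and Ttr, expressed in choroid plexus). The difference of Abca7 stayed between 0.22 and 0.31 (adjusted p 0.0667 to 0.801).

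Of 127 named genes, 116 kept their sign in all 22 alternatives. Ranges over single libraries left out were -0.378 to 0.040 for Il1b, -0.315 to 0.047 for Tnf, -0.312 to 0.066 for Icam1, -0.011 to 0.061 for Cd68, -0.012 to 0.025 for Apoe, -0.033 to 0.233 for Hbb-bt, -0.073 to 0.044 for Cd4, -0.341 to 0.059 for Ttr, -0.083 to 1.442 for S100b, -1.607 to 0.084 for Wdr24 and -0.893 to 0.045 for Taok2. Without both replicates 4, Icam1 had 0.032, S100b -0.065 and Wdr24 0.099. With the index, Apoe had -0.030, Hbb-bt -0.098 and Taok2 0.185. Cd4 had -0.003 with age and -0.046 with Ttr level. Ttr itself had 0.004 in that last fit, a value held near 0 because the covariate is its own level. The causes were not tested.

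No paired analysis was possible because replicate numbers were given in accession order and pair no samples.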
